A study of Mus musculus with 12 samples.

Results

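Mouse 3T3-L1 cells induced to become adipocytes were compared with 3T3-L1 preadipocytes kept under lithium, on single-colour arrays that read microRNAs (miRNAs). The comparison takes the arrays labelled as MDI-induced adipocytes (n = 3) and those labelled as lithium-treated preadipocytes (n = 3), which makes 6 of the 12 arrays of the series. The other 6 arrays, 3 of untreated preadipocytes and 3 of cells given lithium plus MDI, entered the estimate of spread and are given as context. 3T3-L1 is a single established line of mouse embryo fibroblasts that stores fat after hormonal induction. MDI cells were harvested at day 7 after 3 days in induction medium, which combines dexamethasone and insulin with a phosphodiesterase inhibitor, then 2 days with insulin and 2 days without hormones. Lithium cells were preadipocytes exposed to 25 mM lithium chloride. When they were treated and harvested is not given in the sources used here, so time in culture and treatment cannot be told apart. Total RNA (0.5 ug) was Cy3-labelled for each array. The labels do not state that replicates came from separate cultures, and p-values therefore cover only the spread between arrays, which may be technical.

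A miRNA guides a silencing complex to messenger RNAs that pair with its seed, the stretch near its 5′ end, and miRNAs with the same seed can share targets. Many miRNAs are cut from a common primary transcript, so neighbours in the genome can be made together, and from each hairpin mostly a single strand is kept. MDI drives preadipocytes towards fat cells through C/EBP factors and PPARgamma, while lithium inhibits the kinase GSK3, which stabilises beta-catenin as an active WNT signal does, and WNT signalling holds preadipocytes back from differentiating. Both treatments start from the same preadipocytes, and the direct comparison asks how the miRNAs of induced cells and of lithium-held cells differ.

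Mature sequences of a few families are shown to make visible which miRNAs share a seed while lying in different genomic clusters. Sequences and positions are from RefSeq, mouse build GRCm38.p6, 5′ to 3′, with the seed (bases 2 to 8) in capitals. The first set holds partners in paralogous clusters that differed in opposite directions. miR-99a (chr16:77598940-77598961, + strand) and let-7c (chr16:77599672-77599693, + strand, with a further copy at chr15:85706616-85706637) were lower in MDI than in lithium cells. Their relatives miR-99b (chr17:17830194-17830215, + strand) and let-7e (chr17:17830366-17830387, + strand) were higher in MDI cells.
miR-99a: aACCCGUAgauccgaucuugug
miR-99b: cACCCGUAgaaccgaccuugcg
let-7c: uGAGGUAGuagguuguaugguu
let-7e: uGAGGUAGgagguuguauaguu
Counted from the 5′ end with the member listed above taken as reference, miR-99b differs from miR-99a by A1C, U11A, U16C and U21C, and let-7e differs from let-7c by U9G and G19A.

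The next set holds families whose members differed in the same direction, all lower in MDI than in lithium cells. miR-103 is encoded at chr2:131288103-131288125 and chr11:35782447-35782469 (both + strand) and miR-107 at chr19:34820700-34820722 (- strand). miR-193, now named miR-193a-3p, lies at chr11:79712009-79712030 (+ strand) and miR-193b at chr16:13449570-13449591 (+ strand). miR-30a lies at chr1:23272274-23272295 (+ strand) and miR-30c at chr1:23291714-23291736 (+ strand) and chr4:120769584-120769606 (- strand).
miR-103: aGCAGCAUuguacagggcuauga
miR-107: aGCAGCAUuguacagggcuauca
miR-193: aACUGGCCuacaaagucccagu
miR-193b: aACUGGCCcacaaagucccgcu
miR-30a: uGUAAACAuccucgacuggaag
miR-30c: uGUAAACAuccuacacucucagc
miR-107 differs from miR-103 by G22C, and miR-193b differs from miR-193 by U9C, A20G and G21C. Whether an array probe reads such a near-identical relative as well was not tested, so the members of these pairs are uncertain as separate measurements.

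The third set holds 3 miRNAs with higher means in MDI cells (miR-18a, miR-20a and miR-221) and 3 with higher means in lithium cells (miR-466i, miR-574-3p and miR-148a). miR-18a (chr14:115043867-115043889, + strand) and miR-20a (chr14:115044183-115044205, + strand) belong to the miR-17-92 cluster, and miR-221 lies at chrX:19146307-19146329 (- strand). miR-466i lies at chr13:17747552-17747573 (+ strand), miR-574-3p at chr5:64970364-64970385 (+ strand) and miR-148a at chr6:51269829-51269850 (- strand).
miR-18a: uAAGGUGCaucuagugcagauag
miR-20a: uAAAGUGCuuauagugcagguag
miR-221: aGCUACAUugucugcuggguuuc
miR-466i: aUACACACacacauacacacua
miR-574-3p: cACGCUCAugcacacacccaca
miR-148a: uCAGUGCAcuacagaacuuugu

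Signals are given as log2 relative to the array's own 75th percentile of detected probes, so 0 is that percentile. The floor was -4.97, and values at it have no order. A group that lies wholly at the floor shows no spread, which lowers the SE of that miRNA. The arrays of MDI and lithium cells detected 126 to 166 of 611 mouse miRNAs each. Mesenchymal markers were detected 6 of 6 on at least 1 array of both groups, and 5 of them on all 6 arrays. Their summed signal, as a multiple of the array's 75th percentile, ranged from 41.7 to 47.7 in MDI and from 23.4 to 41.0 in lithium cells. Its brightest member by far was miR-21, at a mean log2 signal of 4.94 in MDI and 4.18 in lithium cells. Muscle and blood markers were at background on every array (0 of 6 each). Of the epithelial, neural, and liver and endothelial markers, miR-205 was detected in lithium cells, but not on every lithium array. miR-128 was detected on 1 of 3 MDI arrays and on no lithium array. It was also detected on all 3 arrays of preadipocytes and all 3 of lithium plus MDI. miR-192 was detected on all 3 lithium arrays, on no MDI array, on 2 preadipocyte arrays and on 1 of lithium plus MDI. The replicates did not group cleanly. Lithium 1 correlated with the MDI arrays at a mean r of 0.960 and with the other lithium arrays at 0.942, while lithium 2 and lithium 3 correlated with each other at 0.994. Preadipocytes 3 and lithium plus MDI 3 correlated with the lithium arrays at a mean r of 0.957 and 0.953. With their own groups they correlated less, at 0.939 and 0.924. MDI 1 was hybridised on slide 1, and the other 5 arrays lay on slide 2. Of the context arrays, those of preadipocytes all lay on slide 1 and those of lithium plus MDI all on slide 2. Preadipocyte and lithium arrays thus share no slide, so treatment and slide cannot be told apart between them. Results are therefore given with and without lithium 1 and within slide 2, where lithium 1 is included. In such bulk RNA, fewer cells of a type and less RNA per cell cannot be told apart.

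Between MDI and lithium cells, 157 miRNAs were tested and 0 passed an adjusted p of 0.05 in limma's moderated test, which is 0% of those tested. Unadjusted p was under 0.05 for 33, of which 11 were higher in MDI and 22 higher in lithium cells. The groups did not overlap, with every array of a group above every array of the other, for 48 miRNAs or 30.6%, 29 of them (18.5%) with MDI above and 19 (12.1%) with lithium above. MDI had the higher mean for 99 of 157 (63.1%) and lithium for 57 (36.3%), with a median log2 difference of 0.21. Without lithium 1, 25 miRNAs or 15.9% passed, 8 (5.1%) higher in MDI and 17 (10.8%) higher in lithium cells. Lithium 1 was singled out because its profile lies near the MDI arrays, so leaving it out widens many differences by construction, and calls without it are a description of the other arrays rather than an independent test. Of the 25, 6 had passed the detection filter only through the group where they are high, so the filter itself favoured their difference. When preadipocytes 3 and lithium plus MDI 3, which stood apart from their groups too, were left out together with lithium 1, 66 (42%) passed. The differences are the same numbers in both fits, which differ only in the spread. The added arrays were chosen for lying apart from their groups, so leaving them out narrows the spread by construction. The 66 are therefore no independent test either. Over all 6 arrays, 12 of the 25 had groups that did not overlap. Within slide 2, 3 miRNAs (1.91%) passed, each higher in lithium cells: miR-466f-3p, miR-466i and miR-1196, the last named after its value was seen. Without MDI 1, 4 (2.55%) passed, these same 3 and miR-574-3p. All 4 had passed the detection filter only through lithium, where they are high, so the filter itself favoured their difference. Among all tested miRNAs, 16 passed only through lithium and 2 only through MDI, and 12 of these were higher in that group. Without lithium plus MDI 3, which enters only through the spread, 11 (7.01%) passed, 6 higher in MDI and 5 in lithium cells. This fit was added after the data were seen and is a description too.

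Of 43 miRNAs whose MDI mean lay more than 1 log2 unit from the mean of lithium 2 and lithium 3, lithium 1 lay nearer the MDI mean for 30. The median position of lithium 1 on that path was 20.2% of the way from MDI to the other lithium arrays. Leaving it out moved miR-103 from -1.22 to -1.99, while miR-466f-3p went from -1.51 to -1.47.

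**Figure D1:**
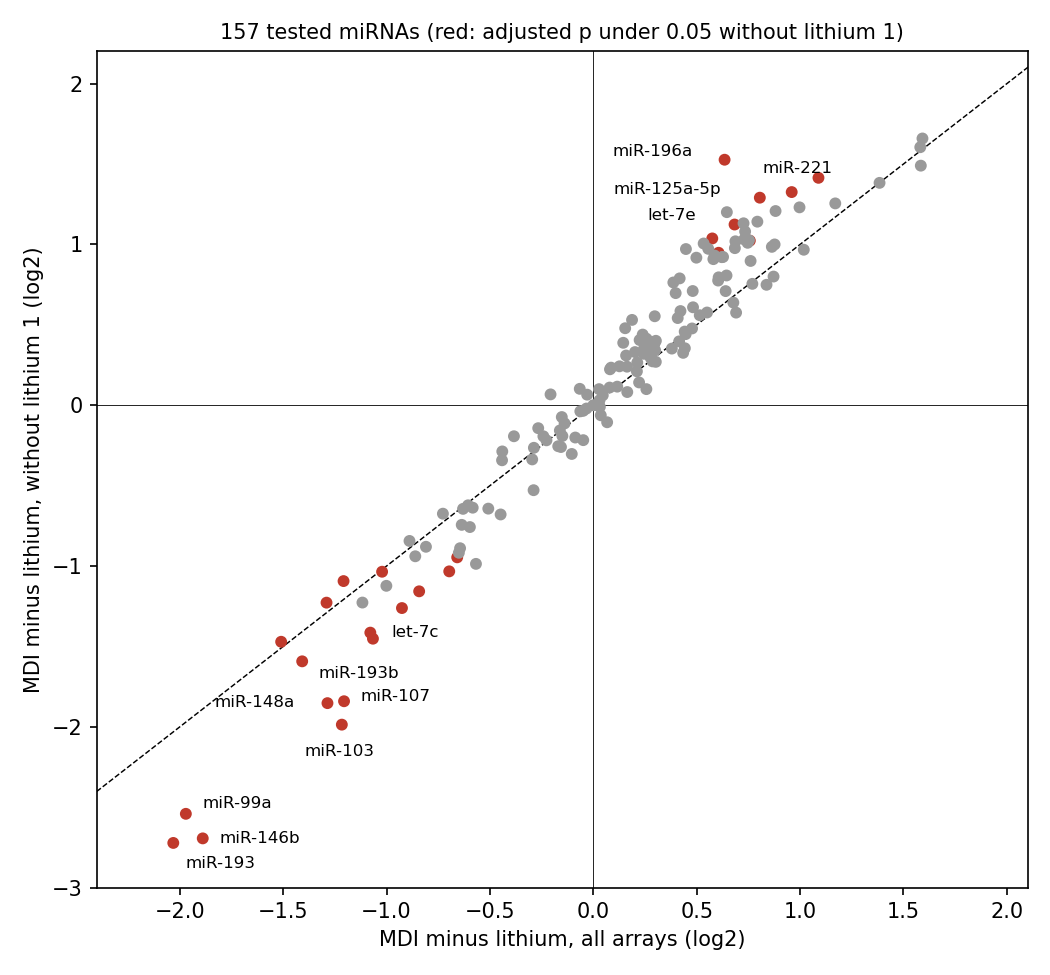
Each point is 1 of 157 miRNAs, with the log2 difference MDI minus lithium over all arrays on the x axis and the same without lithium 1 on the y axis; the dashed line marks equal values and red points passed an adjusted p of 0.05 in limma without lithium 1. Most large differences on both sides lie farther from 0 without lithium 1, and miR-193, miR-146b and miR-99a lie lowest on both axes.

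miR-103 and miR-107, paralogues from introns of the pantothenate kinase genes that are known for roles in insulin sensitivity and fat cell differentiation, were lower in MDI than in lithium 2 and lithium 3. miR-103 read 0.12, -0.41 and -0.50 in MDI cells and -0.58, 1.92 and 1.53 in lithium cells. miR-107 read -0.43, -0.62 and -0.86 in MDI cells and -0.70, 1.35 and 1.06 in lithium cells. For both, lithium 2 and lithium 3 lay far above all MDI arrays and lithium 1 lay among or below them, so the groups overlapped. The log2 difference over all arrays was -1.22 (SE 0.49, adjusted p = 0.201) for miR-103. It was -1.21 (SE 0.42, adjusted p = 0.130) for miR-107. Without lithium 1, the difference was -1.99 for miR-103 and -1.84 for miR-107, each with an adjusted p of 0.00107 in limma, the smallest of any miRNA in that fit. Within slide 2 the differences were -1.41 and -1.31, with adjusted p of 0.270 and 0.212. Preadipocytes, at means of 0.66 and -0.03, lay between the MDI mean and the lithium mean for both.

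The miR-193 pair with miR-365 is a set known from brown fat, where miR-193b and miR-365 are co-expressed from a common transcript. All 4 tested members of the brown fat list, which holds 7, were lower in MDI cells, with a median difference of -1.13 against 0.21 for all tested miRNAs. miR-193b read -3.07, -2.88 and -3.50 in MDI cells and -2.11, -1.33 and -1.79 in lithium cells, with no overlap. Its difference was -1.41 (SE 0.38), a 2.65-fold lower signal in MDI cells, with an adjusted p of 0.0879. miR-193 read -2.54, -3.53 and -3.18 in MDI cells and -2.43, -0.31 and -0.42 in lithium cells, where lithium 1 lay just above the highest MDI array. At -2.03 (SE 0.57, adjusted p = 0.0912), or 4.09-fold lower in MDI cells, it had the largest difference of the 157 miRNAs. miR-365, which the array reads from 2 loci, was at -2.01, -2.57 and -2.73 in MDI cells and at -2.22, -1.10 and -1.46 in lithium cells (difference -0.84, SE 0.33, adjusted p = 0.194). Without lithium 1, limma gave adjusted p of 0.0392 for miR-193b, 0.00542 for miR-193 and 0.0392 for miR-365. miR-455, the fourth member, differed by -0.44 (SE 0.42, adjusted p = 0.503) and overlapped between groups. Untreated preadipocytes, at -2.49 ± 0.76 (SD, n = 3) for miR-193b and -3.54 ± 0.77 for miR-193, lay below the lithium means of -1.74 ± 0.39 and -1.05 ± 1.20.

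**Figure D2:**
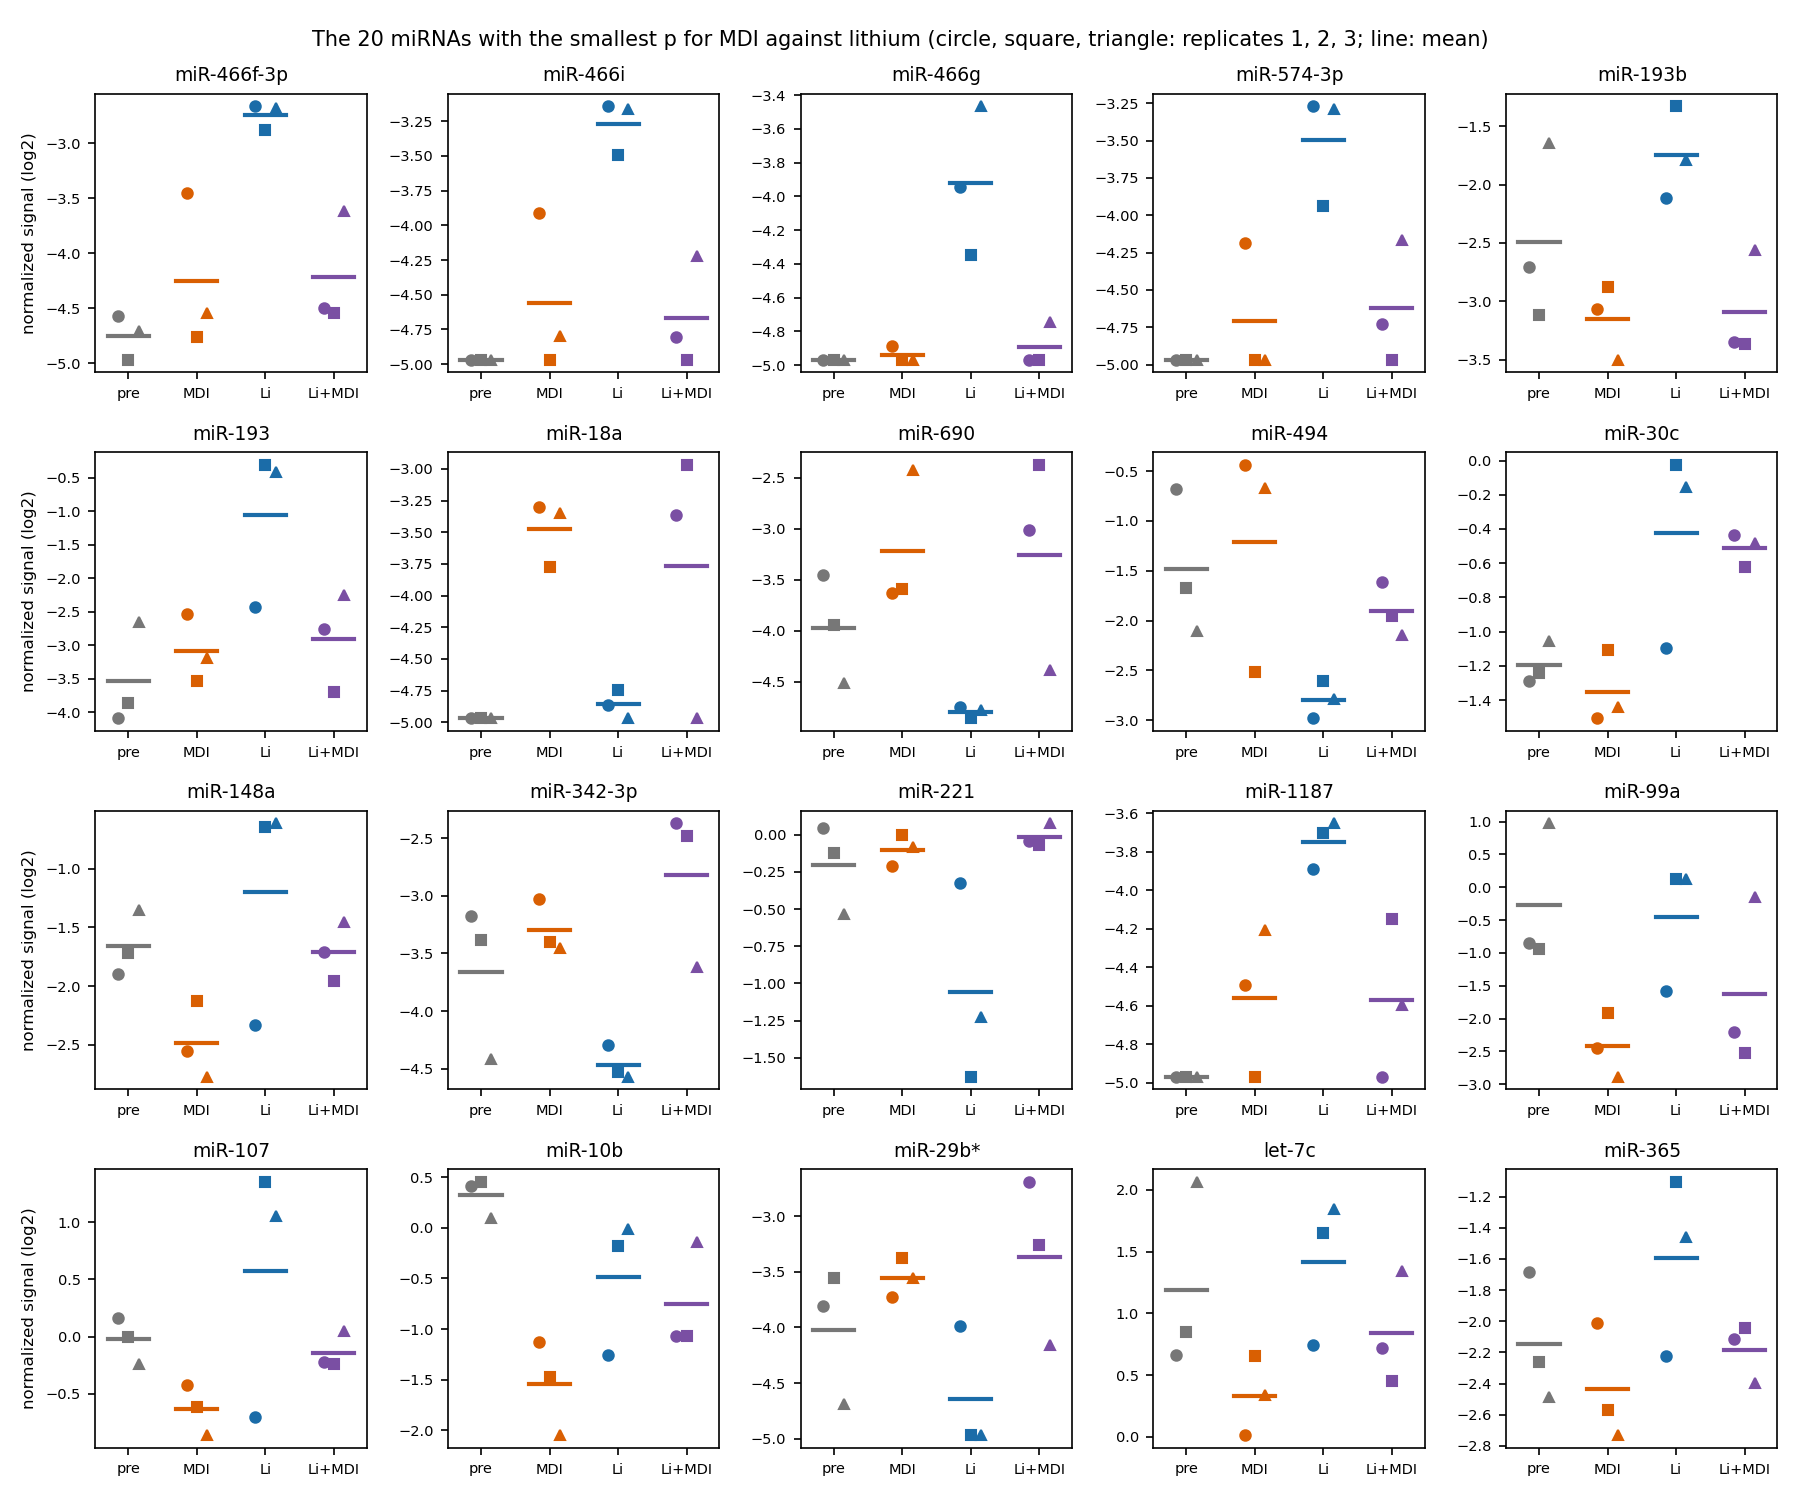
Normalized log2 signal on each of the 12 arrays for the 20 miRNAs with the smallest p for MDI against lithium, ordered by p, with circles, squares and triangles for replicates 1, 2 and 3 and a line at each group's mean (pre, preadipocytes; Li, lithium). The 3 lithium arrays lie close together for miR-466f-3p, miR-690 and miR-342-3p, whereas lithium 1 lies with the MDI arrays for miR-148a, miR-107 and miR-365.

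The cluster of miR-99a with let-7c and that of miR-99b with let-7e and miR-125a are paralogous. Their miR-99 and let-7 members carry the same seeds and differed in opposite directions. This did not extend to miR-125. miR-125b-5p, which has the seed of miR-125a-5p and a copy farther along chromosome 16, was higher in MDI cells (0.61), as was miR-125a-5p (0.81). miR-99a read -2.45, -1.92 and -2.88 in MDI cells and -1.59, 0.12 and 0.13 in lithium cells, with every lithium array above every MDI array. Its difference was -1.97 (SE 0.67, adjusted p = 0.119), or 3.92-fold lower in MDI cells. let-7c read 0.01, 0.65 and 0.34 in MDI cells and 0.74, 1.65 and 1.85 in lithium cells, also without overlap (difference -1.08, SE 0.41, adjusted p = 0.168). On chromosome 17 all 4 tested strands of the miR-99b, let-7e and miR-125a cluster were higher in MDI cells, by 0.68 to 0.88. miR-99b read -0.60, -0.90 and -0.84 in MDI cells and -1.01, -1.93 and -2.04 in lithium cells, without overlap (difference 0.88, SE 0.41, adjusted p = 0.218). let-7e read 1.65, 1.65 and 1.50 in MDI cells and 1.80, 0.41 and 0.55 in lithium cells, so that lithium 1 lay above every MDI array. miR-125a-5p read -0.13, -0.27 and -0.10 in MDI cells and 0.00, -1.47 and -1.45 in lithium cells. Without lithium 1, miR-99a (-2.54, adjusted p = 0.0392), let-7c (-1.41, 0.0457), miR-125a-5p (1.29, 0.0392) and let-7e (1.12, 0.0499) passed in limma, and miR-99b (1.21, 0.0637) did not. Within slide 2 the differences were -1.96 for miR-99a and 0.79 for miR-99b, each in the same direction as over all arrays.

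The third cluster of this ancestry carries miR-100, which read -2.50, -2.08 and -2.23 in MDI cells and -2.08, -2.06 and -2.25 in lithium cells, a difference of -0.14 (SE 0.22, adjusted p = 0.693). Of the 3 tested miRNAs with the miR-99 seed, therefore, a member was lower, a member higher and a member overlapping. The let-7 family, which is known to restrain proliferation and to accumulate with differentiation, showed no common direction. Of its 9 tested members, 6 were higher in MDI and 3 in lithium cells, with a median of 0.13 and a range from -1.08 for let-7c to 0.68 for let-7e. let-7b, which differs from let-7c by A17G, read -0.59, -0.03 and -0.28 in MDI cells and -0.02, 0.25 and 0.67 in lithium cells (difference -0.60, SE 0.28, adjusted p = 0.218). miR-98, an X-linked member, differed by 0.55 in the other direction, without overlap.

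The 5 tested members of the miR-30 family, known to favour fat cell formation by targeting RUNX2, were all lower in MDI than in lithium cells. Their median difference was -0.65, and 3 of 5 had an unadjusted p under 0.05 with lithium higher, against 14% of all tested miRNAs. miR-30c read -1.51, -1.11 and -1.44 in MDI cells and -1.10, -0.02 and -0.16 in lithium cells. Lithium 1 lay barely above the highest MDI array, and the difference was -0.93 (SE 0.29, adjusted p = 0.104). miR-30a lay between -1.10 and -0.95 on the MDI arrays and read -0.99, 0.15 and -0.12 in lithium cells (difference -0.70, SE 0.30, adjusted p = 0.218). miR-30d had no overlap (-0.58), and miR-30b (-0.64) overlapped. Without lithium 1, miR-30c (-1.26, adjusted p = 0.00741) and miR-30a (-1.03, adjusted p = 0.0367) passed in limma. Lithium plus MDI cells, at -0.51 ± 0.10 for miR-30c, lay near the lithium mean of -0.43 ± 0.59, and preadipocytes, at -1.19 ± 0.13, lay near the MDI mean of -1.35 ± 0.21. The passenger strand miR-30a* had the same direction as miR-30a (-0.57, SE 0.44, adjusted p = 0.411).

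miR-148a, a miRNA reported to promote adipogenesis through the WNT ligand WNT1, read -2.55, -2.12 and -2.77 in MDI cells and -2.33, -0.64 and -0.61 in lithium cells. Lithium 1 lay within the MDI range and the other lithium arrays far above it. The difference was -1.29 (SE 0.41, adjusted p = 0.104), and -1.85 with an adjusted p of 0.00182 without lithium 1. Its seed relatives miR-148b and miR-152 differed by -0.10 and -0.05, with overlapping groups. The 95% interval of the difference ran from -0.75 to 0.55 for miR-148b and from -0.54 to 0.45 for miR-152.

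**Figure D3:**
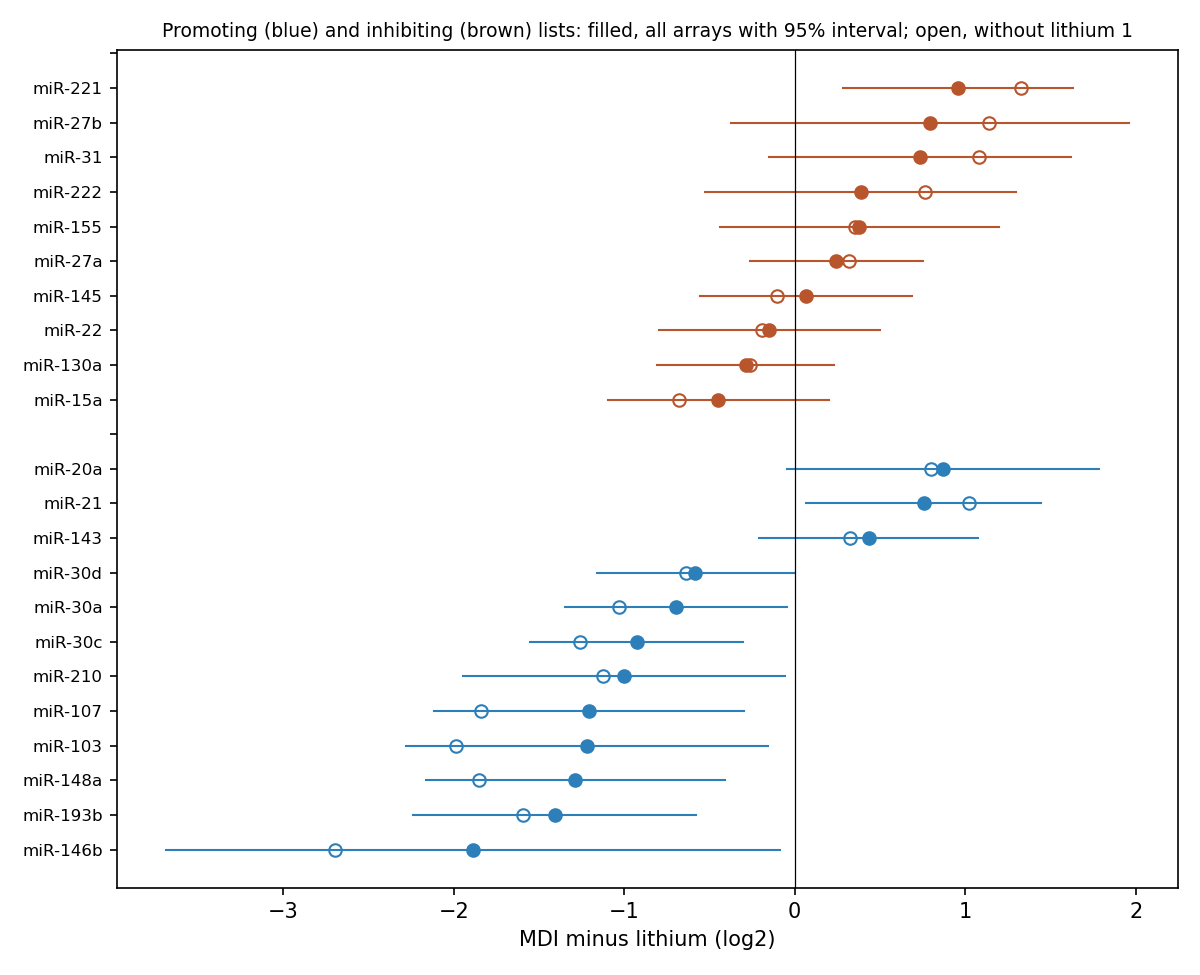
Log2 differences MDI minus lithium for the 12 tested miRNAs of a list reported to promote adipogenesis (blue) and the 10 of a list reported to inhibit it (brown), as filled points with 95% intervals over all arrays and open points without lithium 1. The promoting list has 9 points below 0 and 3 above, and the inhibiting list 3 below and 7 above.

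A list of miRNAs reported to promote adipogenesis had 12 of 15 members tested. MDI cells, the induced group, had the lower mean for 9 of them and the higher for 3, with a median difference of -0.96. All 9 had an unadjusted p under 0.05, against 14% of all tested miRNAs with lithium higher, and 4 of them did not overlap between groups, against 12.1% of all tested with lithium above. These 9 were miR-146b, miR-193b, miR-148a, miR-103, miR-107, miR-210, miR-30c, miR-30a and miR-30d, and the 3 higher in MDI cells were miR-143, miR-21 and miR-20a. Several of them share a seed and are not separate pieces of evidence. Without lithium 1 the median was -1.19, and 7 passed with lithium higher and 1 with MDI higher, against 10.8% and 5.1% of all tested miRNAs. A list reported to inhibit adipogenesis had 10 of 15 members tested, of which 7 were higher in MDI and 3 in lithium cells, with a median of 0.31 and 1 unadjusted p under 0.05. miR-146b, known as a brake on inflammatory signalling and as a miRNA of fat tissue, read -3.22, -1.24 and -2.13 in MDI cells and -1.92, 0.46 and 0.53 in lithium cells. Its difference of -1.89 had a wide error (SE 0.84, adjusted p = 0.218), and without lithium 1 it was -2.69 (adjusted p = 0.0495). Its seed relative miR-146a differed by 0.19 (SE 0.48) and was detected on all 3 arrays of preadipocytes only. miR-210, a hypoxia-responsive miRNA, read -2.91, -3.63 and -4.12 in MDI cells and -2.80, -2.52 and -2.34 in lithium cells, without overlap (difference -1.001, SE 0.44, adjusted p = 0.218).

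miR-221 and miR-222, neighbours on the X chromosome known to act on the cell cycle inhibitor p27, belong to the inhibiting list and were higher in MDI cells. miR-221 read -0.21, 0.00 and -0.08 in MDI cells and -0.33, -1.63 and -1.22 in lithium cells, with no overlap. Its difference was 0.96 (SE 0.31), or 1.94-fold, with an adjusted p of 0.106, and 1.33 with an adjusted p of 0.00783 without lithium 1. Preadipocytes, at -0.20 ± 0.30, and lithium plus MDI cells, at -0.01 ± 0.08, lay near the MDI mean of -0.10 ± 0.11. miR-222 differed by 0.39 (SE 0.42, adjusted p = 0.558) with overlap. miR-21, a miRNA raised in many growing and stressed tissues and a member of the promoting list, read 5.06, 4.91 and 4.85 in MDI cells and 4.72, 3.69 and 4.14 in lithium cells. The difference was 0.76 (SE 0.32, adjusted p = 0.218), and 1.02 with an adjusted p of 0.0497 without lithium 1. Quantile normalization set it to 0, but it gives the brightest probe of every array the same value, so this says nothing about miR-21.

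The miR-17-92 cluster and its X-linked copy, known as growth-promoting and regulated by MYC and E2F, were higher in MDI cells. All 6 tested members were higher in MDI cells and 6 of 6 did not overlap, against 18.5% of all tested miRNAs with MDI above, with a median difference of 0.85. The list held 13 miRNAs on the array, 7 of them detected, and miR-19b and miR-92a are encoded in both clusters. miR-18a read -3.30, -3.78 and -3.34 in MDI cells and -4.86, -4.75 and -4.97 in lithium cells, and it lay at the floor on all 3 preadipocyte arrays. It passed the detection filter only through the MDI group, which favours a difference in that direction, and it differed by 1.38 (SE 0.40, adjusted p = 0.100). miR-20a read -0.92, -1.17 and -0.95 in MDI cells and -2.03, -1.80 and -1.83 in lithium cells (difference 0.87, SE 0.42, adjusted p = 0.224). miR-19b read -0.70, -1.57 and -1.30 in MDI cells and -1.98, -1.83 and -2.05 in lithium cells (difference 0.77, SE 0.35). miR-92a read 0.27, -0.51 and 0.00 in MDI cells and -0.61, -1.20 and -1.41 in lithium cells (difference 1.00, SE 0.57). For miR-18a, miR-20a and miR-19b lithium 1 lay with the other lithium arrays, and the median of the 6 without it was 0.78. The passenger strand miR-17* had the smallest difference, 0.44. It read -3.78, -4.55 and -4.58 in MDI cells and -4.92, -4.68 and -4.63 in lithium cells, near the floor. It was detected on 1 MDI and 2 lithium arrays and passed the filter only through lithium plus MDI, so its lack of overlap is uncertain. Whether probes of close relatives such as miR-20a and miR-20b read each other was not tested. Lithium plus MDI 3 was the lowest of its group for miR-20a at -2.74 and for miR-92a at -2.23, which widened the spread shared by the fit. Without that array miR-18a and miR-20a were among the 11 that passed. It was left out after the data were seen, so a narrower spread follows from the choice, and these calls are no independent test.

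The paralogous miR-106b-25 cluster had the same direction, with 3 of 3 tested members higher in MDI cells and a median of 0.69. miR-25 read -0.40, -0.71 and -0.44 in MDI cells and -1.13, -1.43 and -1.56 in lithium cells, and miR-93 read -0.84, -0.82 and -0.58 against -1.66, -1.26 and -1.38. Neither overlapped, and the differences were 0.86 (SE 0.39) and 0.69 (SE 0.39). miR-106b differed by 0.22 with overlap and turned to -0.10 with the authors' table. All 4 tested miRNAs with the seed of miR-20a, which are miR-20a, miR-20b, miR-93 and miR-106b, were thus higher in MDI cells.

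The 5 tested miRNAs of the miR-23, miR-27 and miR-24 clusters, of which miR-27 is known to repress PPARgamma, were all higher in MDI cells with a median of 0.65, but 0 of 5 were free of overlap, against 18.5% of all tested miRNAs with MDI above. miR-23a read 3.02, 2.59 and 2.38 in MDI cells and 2.62, 1.72 and 1.76 in lithium cells (difference 0.63, SE 0.33, adjusted p = 0.241). miR-27b read -0.40, -1.63 and -1.56 against -1.29, -2.36 and -2.32 (difference 0.79, SE 0.54, adjusted p = 0.344), with MDI 1 the highest of the 6. The X-linked miR-322, miR-503 and miR-351 cluster, of which miR-322 and miR-503 act on the cell cycle, had 4 of 5 tested members higher in lithium cells with a median of -0.64. Of the 5, 4 passed the detection filter only through lithium, which favours a higher lithium mean, and 3 of these 4 were higher there. miR-322 read -1.05, 1.02 and 0.45 in MDI cells and 1.03, 1.26 and 1.47 in lithium cells, without overlap and with a lithium 1 that lay with its group (difference -1.12, SE 0.72, adjusted p = 0.343). Within slide 2, where MDI 1 is absent, its difference was -0.52.

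The miR-29 family, known to repress collagens, was higher in MDI cells for 3 of 3 members, with a median of 0.40 and overlap in each. Its passenger strand miR-29b* had the larger difference. It read -3.73, -3.38 and -3.55 in MDI cells and -3.99 on lithium 1, and lay at the floor on the other lithium arrays (difference 1.09, SE 0.41, adjusted p = 0.168). The p53-responsive miR-34 family was higher in MDI cells for 5 of 5 members, with a median of 0.50 and overlap in each. miR-34a read 1.01, 0.95 and 0.69 in MDI cells and 1.23, 0.00 and -0.31 in lithium cells, so that lithium 1 was the highest of the 6. Without it the difference was 1.04 (adjusted p = 0.0465). The miR-15 and miR-16 group, known for restraining the cell cycle, was lower in MDI cells for 4 of 5 members with a median of -0.38. miR-15b was the exception at 0.74 (SE 0.34, adjusted p = 0.218), reading 1.19, 1.00 and 1.15 in MDI cells against 0.94, 0.19 and -0.01.

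Families named miR-669, miR-467, miR-466 and miR-297 are known from a large repeat cluster in an intron of Sfmbt2, although members also lie elsewhere. The array holds 39 miRNAs with these names, of which 10 were detected at least on a single array and 5 were tested, with 4 of them at a higher mean in lithium cells. The tested members with a RefSeq position, miR-466i on chromosome 13 and miR-467f on chromosome 11, lie outside Sfmbt2, which is on chromosome 2. Without lithium 1 the differences hardly moved, with miR-466f-3p at -1.47 and miR-466i at -1.23. Of these 5, 3 passed the filter only through the lithium group, so the filter itself favoured a higher lithium mean. miR-466f-3p read -3.45, -4.76 and -4.54 in MDI cells and -2.66, -2.88 and -2.68 in lithium cells, with no overlap. It was detected on 1 of 3 MDI arrays. Its difference was -1.51 (SE 0.35), with an adjusted p of 0.0657, the smallest reached over all arrays. The same adjusted p applied to miR-466i, miR-466g and miR-574-3p. Each of these lay at the floor on all 3 preadipocyte arrays, with an SD of 0 there. That lowers the SE from the fit, so their SE and p are uncertain. miR-466i read -3.91 and -4.80 on MDI 1 and MDI 3, lay at the floor on MDI 2, and read -3.14, -3.50 and -3.16 in lithium cells (difference -1.29, SE 0.31), with 1 of 3 MDI arrays detected. miR-466g was not well above background on any MDI array, where the mean was -4.94, and averaged -3.92 in lithium cells, which makes it at least 1.34-fold higher in lithium cells. The bound sets the lithium mean against the higher of each MDI array's lowest signal well above background and the probe's own signal.

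miR-574-3p read -4.18 on MDI 1, lay at the floor on the other MDI arrays, and read -3.27, -3.94 and -3.29 in lithium cells (difference -1.21, SE 0.31). It too was detected on 1 of 3 MDI arrays and passed the filter only through lithium. Its sister strand miR-574-5p differed by only -0.15 (SE 0.28, adjusted p = 0.733). miR-574-3p, miR-574-5p and miR-1187 were listed because lithium raised them in earlier results of these arrays, so their direction (3 of 3 lithium higher) is not independent evidence. miR-467f read -3.15, -4.43 and -3.96 in MDI cells and -3.01, -3.39 and -2.96 in lithium cells (difference -0.73, SE 0.31, adjusted p = 0.218). miR-669f differed by 0.03, and its sign changed with the scaling. Within slide 2, miR-466f-3p (-1.91) and miR-466i (-1.61) passed in limma with an adjusted p of 0.0292 each, and miR-574-3p (-1.47) had 0.0607. With normexp background correction on the median signals the difference of miR-466f-3p was -0.41 (adjusted p = 0.968), and its signals lie near background. MDI 1, on slide 1, was the highest MDI array for each of these miRNAs except miR-669f and miR-1187.

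Some of these miRNAs carry short dinucleotide repeats, a sequence feature that the comparison did not use. The letters CACACA, searched in mature sequences in their own strand, stood in 5 of 127 tested miRNAs with a RefSeq sequence (3.94%) and in 12 of 1679 mature sequences in the table (0.715%). The 5 were miR-466i, miR-574-3p and miR-467f, which were higher in lithium cells, and miR-342-3p and miR-34c*, which were higher in MDI cells. miR-342-3p read -3.03, -3.40 and -3.45 in MDI cells and -4.29, -4.53 and -4.57 in lithium cells, without overlap (difference 1.17, SE 0.38, adjusted p = 0.106). Members with CACACA thus differed in both directions. The letters UGUGUG stood in 3 of 127 tested (2.36%) and in 28 of 1679 in the table (1.67%), and the 3, miR-1187, let-7b and miR-574-5p, had higher means in lithium cells. miR-466f-3p and miR-466g were not among the sequences matched.

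Among further miRNAs with small p, miR-690 and miR-494 were higher in MDI cells and lithium 1 lay with its group. miR-690 read -3.63, -3.59 and -2.43 in MDI cells and -4.75, -4.86 and -4.78 in lithium cells (difference 1.58, SE 0.47, adjusted p = 0.104). miR-494, of the imprinted Dlk1-Dio3 region, read -0.44, -2.52 and -0.67 in MDI cells and -2.98, -2.61 and -2.79 in lithium cells (difference 1.58, SE 0.49, adjusted p = 0.104), with MDI 2 barely above the lithium arrays. Without MDI 2 it was the single miRNA that passed (0.637% of those tested). For miR-494, however, leaving out the MDI array nearest the lithium arrays widens the difference by construction. miR-10b, encoded in the HoxD cluster, read -1.12, -1.47 and -2.05 in MDI cells and -1.25, -0.18 and -0.01 in lithium cells (difference -1.07, SE 0.38, adjusted p = 0.133). Preadipocytes lay above both, at 0.32 ± 0.20. miR-10a, its HoxB relative with the same seed, differed by 0.51 in the other direction at signals near the floor. miR-181a read -2.72, -3.20 and -3.63 in MDI cells and -2.20, -2.55 and -2.13 in lithium cells (difference -0.89, SE 0.38, adjusted p = 0.218), and preadipocytes lay above both at -1.53 ± 0.25. miR-125b-5p, named after its value was seen, overlapped over all arrays (0.61, adjusted p = 0.236) and passed in limma without lithium 1 (0.95, adjusted p = 0.042). miR-196a, from the Hox clusters, overlapped over all arrays as well (0.63, adjusted p = 0.510), with lithium 1, at -2.29, the highest of the 6. Without lithium 1 it differed by 1.53 (adjusted p = 0.0449), but it passed the filter only through MDI, which favours a higher MDI mean. miR-192, also named after its value was seen, passed without lithium 1 (adjusted p = 0.032) and had passed the filter only through lithium. It was not well above background on any MDI array, which makes it at least 1.09-fold higher in lithium cells over all arrays.

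**Figure D4:**
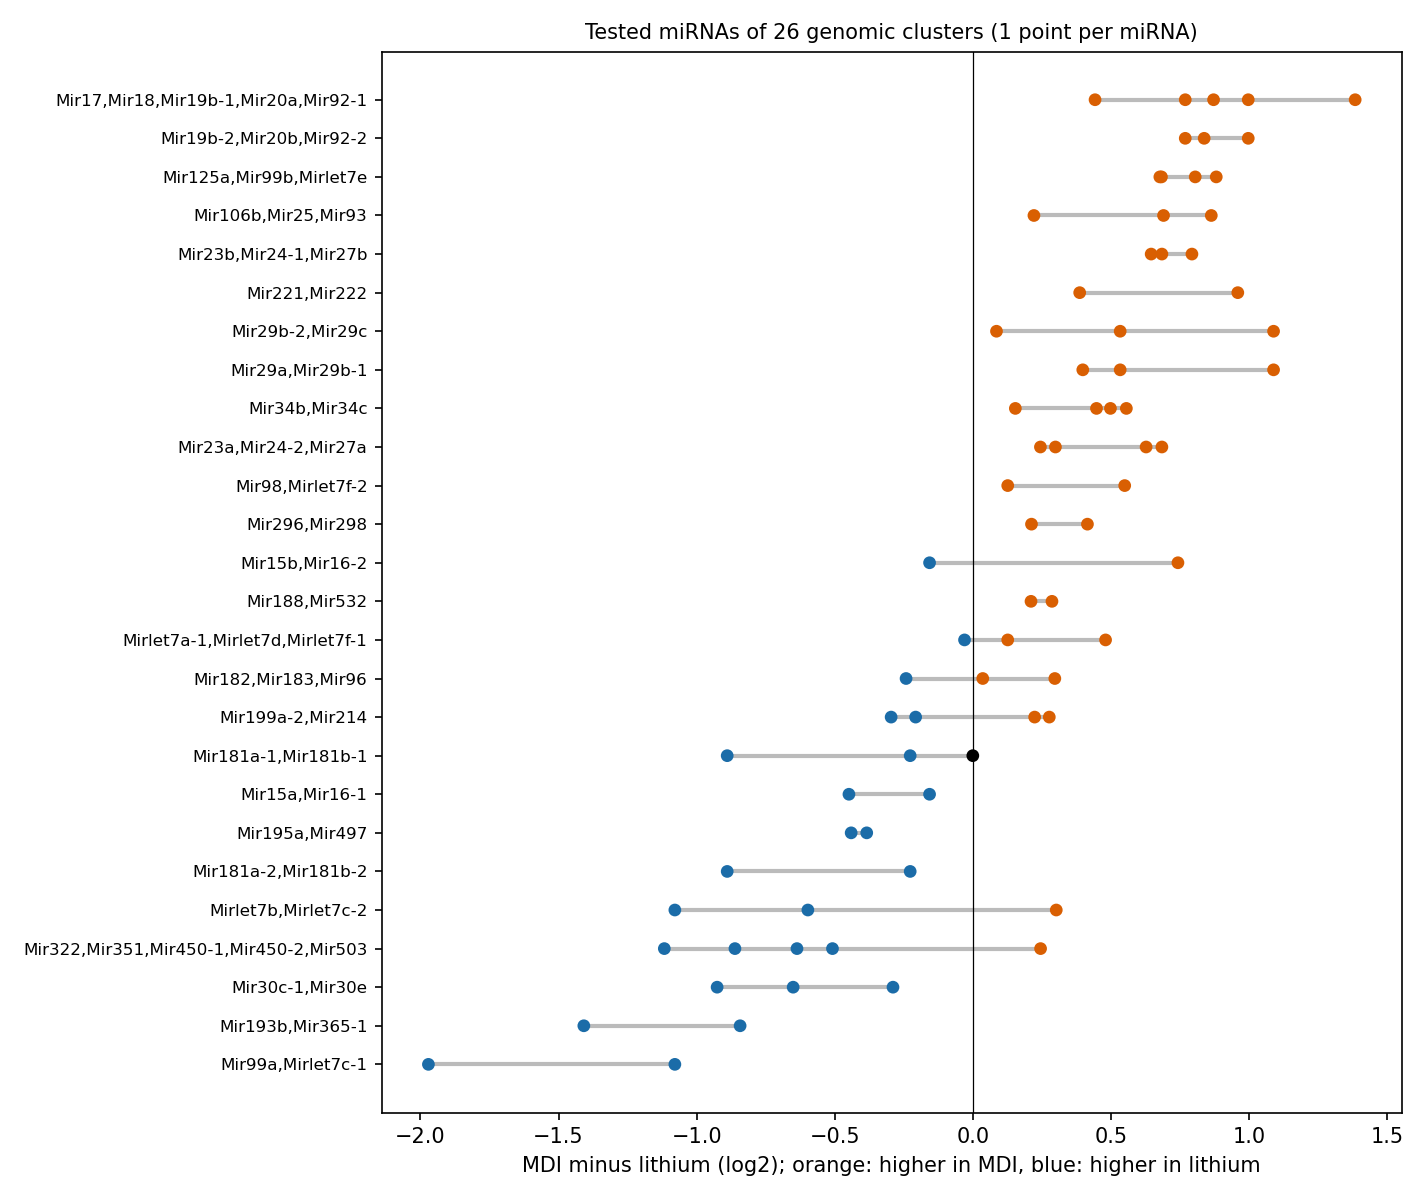
Log2 differences MDI minus lithium for the tested miRNAs of 26 genomic clusters, with 1 point per miRNA, clusters ordered by their median and named by their RefSeq genes; a miRNA with copies in several clusters appears in each. The clusters of miR-17-92, of its X-linked copy and of miR-99b lie wholly above 0, and those of miR-99a with let-7c and of miR-193b with miR-365 wholly below. The miR-125b copy farther along chromosome 16 is not part of the cluster of miR-99a with let-7c.

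Neighbours in the genome mostly differed in the same direction. Hairpins within 10 kb of each other on a strand were taken as a cluster, and 26 clusters had at least 2 tested members. In 19 of them all members differed in the same direction. A miRNA with copies in several clusters, such as miR-181a, counts in each, so the clusters are not separate measurements. Of 69 pairs from different hairpins of a cluster, 57 (82.6%) had the same direction, as had 13 of 17 pairs of strands from the same hairpin (76.5%). Pairs with the same seed that were neither in a cluster nor in a hairpin had the same direction in 45 of 70 cases (64.3%), beside 53.3% of all 12090 pairs of tested miRNAs. Of 21 seeds with at least 2 tested members, 15 had all members in the same direction. Pairs share members and probes can share targets, so these shares are descriptions without a test. The 69 cluster pairs include neighbours with the same seed, such as miR-221 with miR-222. Neighbourhood and shared seed therefore cannot be told apart in that share. The widest seed families were those of miR-99, with 2.85 log2 units between miR-99a and miR-99b, and of miR-146, with 2.08 between miR-146b and miR-146a. The passenger strands, marked with an asterisk, were higher in MDI cells for 12 of 17 tested, with a median of 0.30 against 0.21 for all tested miRNAs.

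In several further families no member passed over all arrays. miR-143 (0.43) and miR-145 (0.07), miR-26a (-0.61) and miR-26b (-0.16), miR-31 (0.73) and miR-155 (0.38) had adjusted p between 0.227 and 0.888. Of these, miR-26a did not overlap, reading 0.15, 0.98 and 0.35 in MDI cells and 1.06, 1.03 and 1.20 in lithium cells. miR-199a-3p (0.22), miR-199a-5p (-0.30) and miR-214 (-0.21), which mark mesenchymal cells, overlapped between groups, and so did miR-183 (0.30) and miR-182 (0.04). miR-96, of the same cluster as miR-182 and miR-183, had no overlap but differed by only -0.24 (SE 0.30). miR-130a (-0.29) and miR-301a (0.88), which share a seed, differed in opposite directions, each without overlap and with adjusted p of 0.444 and 0.266. The median SE of a difference over all tested miRNAs was 0.335.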

How the data were processed

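Total RNA of 12 samples was hybridised to Agilent single-colour mouse miRNA arrays. The deposited scanner files hold spot intensity that Agilent Feature Extraction had background-subtracted without scaling arrays to each other, per the file headers, which name version 10.5.1.1; the submitters' processing notes name 9.5.3. The authors also deposited a table of log2 values whose processing steps are not given in the sources used here. Its highest value was 15.05 on every array. This table served as an alternative.

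Outlier spots were left out, spots of a probe averaged, and arrays scaled to their 75th percentile across 181 mouse probes found on every one of the 12 arrays. A floor at the 5th percentile of detected values preceded log2. The brightest of a miRNA's 1 to 4 probes stood for it. A probe counted as detected with over 50% of its spots well above background. Of 75 dimmer probes detected on all 6 arrays, 72 had the same sign of difference. Detection on all 3 arrays of some group left 157 miRNAs for testing. There is no counting depth here, and the number of arrays limits precision. The contrast MDI minus lithium came from limma 3.58.1 (R 4.3.3), fitted to 4 group means over all 12 arrays (moderated test, both directions, Benjamini-Hochberg adjustment, threshold 0.05), and checked on simulated data. Figures were drawn with matplotlib. Of the tested miRNAs, 140 had a RefSeq position and 127 a mature sequence.

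Members and lists were chosen with earlier results of these data known. The text names the 20 miRNAs with the smallest p, of each of 28 lists the tested members or the 2 highest and 2 lowest, other strands of their hairpins, and members of lists and calls singled out after their values were seen. The replicate numbers did not pair the samples: deviations of same-numbered MDI and lithium arrays correlated at -0.05, 0.01 and -0.09. Alternatives varied scaling, background, probe choice, floor, filter, slide, replicate block and arrays left out.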

Additional observations from a re-analysis of the deposited data

Results flagged for a closer look

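Outside the comparison, the arrays carry 98 probes for viral miRNAs, of which 9 were detected on any array. Probes for mghv-miR-M1-2, a miRNA of a murine gammaherpesvirus, read above the level of all 3 untreated preadipocyte arrays on every MDI and lithium array. The brightest of its 4 probes read -4.24, -4.40 and -4.59 on the preadipocyte arrays, -3.13, -3.89 and -3.64 on the MDI arrays and -3.49, -3.93 and -3.70 on the lithium arrays. It stood 0.86 above preadipocytes in MDI and 0.71 in lithium cells on the log2 scale. The others stood 0.90 and 0.88 above them in MDI cells, and 0.58, 0.70 and 0.60 in lithium cells, the last against preadipocyte values at the floor. Preadipocyte arrays lay on slide 1 and lithium arrays on slide 2, so slide and treatment cannot be told apart there. All groups of 3 arrays were too small for a test of single outlying arrays.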

How the results depend on the processing

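Against 0 miRNAs past the threshold, quantile normalization gave 6 (with MDI higher in 56.7% of tested miRNAs rather than 63.1%), no scaling 1 (51.0%), the mean over all probes 4, slide as a block 4, slide 2 alone 3, limma with trend and robust settings 4, and the fit without the 3 arrays that stood apart 66. The count stayed 0 with the all-probe percentile, normexp, the authors' table, the 1st-percentile floor, no filter, both stricter filters, the 6 arrays alone and slide as a random block, and with the replicate block it was 0. Leaving out single arrays gave 0 to 25, and from the 3 within slide 2 also 0 to 25; leaving out lithium plus MDI 3, added after seeing the data, gave 11. The cause of these changes was not tested. No scaling and quantile normalization moved the median of all tested miRNAs by -0.20 and -0.13. Of 88 named miRNAs, 67 never changed sign under the 23 to 25 alternatives that gave a value, though miR-21 and miR-29b* reached 0, leaving 65 with a single direction throughout. The 0 of miR-21 under quantile normalization follows from its place as the brightest miRNA. The medians of 23 of 28 lists kept their sign under the 23 to 25 alternatives that gave one. Not all alternatives could change a sign. The filters, the 6 arrays alone, the replicate block and limma's trend and robust settings leave each difference as it was. So does leaving out preadipocytes 3 or lithium plus MDI 3. Slide 2 alone, slide as a block and leaving out MDI 1 give the same differences. Leaving out lithium 1 gives those of leaving out the 3 arrays. The named miRNAs that changed sign, of which miR-322* (-0.51) had the largest difference, did so as follows. With the authors' table, miR-106b was -0.10, miR-351 -0.045, miR-29c -0.039, miR-199a-3p -0.29, miR-214* -0.55, miR-145 -0.025 and miR-669f -0.13. With the mean over probes, miR-100 was 0.063, miR-146a -0.035 and miR-669f -0.10. Without scaling, miR-182 was -0.17, miR-29c -0.12, miR-145 -0.10, miR-146a -0.0052 and miR-669f -0.079. With normexp, miR-181b was 0.011, miR-100 0.00048, miR-455 0.025, miR-322* 0.019, miR-148b 0.058 and miR-152 0.0071. With quantile normalization, miR-182 was -0.023, miR-199a-3p -0.26, miR-145 -0.089 and miR-669f -0.090. With the all-probe percentile, miR-152 was 0.036. Within slide 2 and with slide as a block, miR-16 was 0.018, miR-199a-5p 0.057, miR-214 0.28 and miR-26b 0.16. Without the 3 arrays, miR-182 was -0.062, miR-214 0.067 and miR-145 -0.11. Leaving out single arrays, miR-182 ran from -0.062 to 0.21, miR-16 from -0.29 to 0.018, miR-29c from -0.079 to 0.23, miR-34b-3p from -0.0084 to 0.48, miR-199a-5p from -0.56 to 0.057, miR-214 from -0.57 to 0.28, miR-199a-3p from -0.0070 to 0.49, miR-145 from -0.11 to 0.20, miR-26b from -0.42 to 0.16, miR-148b from -0.30 to 0.045, miR-152 from -0.11 to 0.017, miR-574-5p from -0.29 to 0.028 and miR-669f from -0.16 to 0.21. Signals near background limited the low miRNAs: 7.54% of tested values on the 6 arrays lay at the floor.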
